A study of Sus scrofa with 12 samples.

Results

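Cuts assigned to members of the miR-23/27/24, miR-17/92 and miR-30 groups were collected from PARE libraries of pig loin muscle. PARE, parallel analysis of RNA ends or degradome sequencing, captures the 5′ ends of cleaved transcripts, and PAREsnip pairs such ends with small RNAs that could direct a cut there. A listing was counted by the first miRNA name of its row, without species prefix and arm. That name had to be miR-23a, 23b, 27a, 27b, 24, 17, 18a, 19a, 19b, 20a, 92a or 92b, or miR-30 with a letter. This gave 748 of 19855 rows (3.77%). Overlapping windows of the same cut were then merged by adding the listed start to the cleavage position, which left 56 interactions of a miRNA with a cut in a library, out of 2935 (1.91%). They comprised 31 distinct interactions at 25 cuts, with 10 miRNAs and 23 target genes of the 1414 in the tables. The miR-23/27/24 group held 306 rows and 35 interactions, the miR-17/92 group 206 rows and 14 interactions, and the miR-30 group 236 rows and 7 interactions. No row analysed here had miR-24, miR-18a, miR-19a, miR-92a, or a miR-30 other than miR-30a-5p and miR-30b-5p as its first name. Of the 748 rows, 210 carried 2 names, and second names were not searched. All counts below rest on first names.

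The 12 libraries came from female pigs of 3 breeds, recorded at day 180 and slaughtered at 100 ± 2 kg. Each breed, Hampshire, Pietrain and Polish Large White, had 2 libraries titled high MM, whose labels give a heavy shear force, and 2 titled low MM, with a light shear force. The labels leave MM unexplained, while muscle mass is named in the series title. Tab names in the deposited workbook exchange high and low for the 4 Pietrain libraries. Groups follow the sample titles here. No treatment or genetic change is recorded in the labels, and separate animals within a breed and MM group are the replicates. As a check of the tissue, 5 of 8 skeletal muscle markers were among the target genes of all small RNAs (ACTA1, CKM, DES, MYH2 and MYH4), against 4 of 19 markers of adipocytes, blood, endothelium, fibroblasts and Schwann cells. None of the 27 markers was a target of the miRNAs described here.

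These miRNAs are grouped by genomic origin. In mammals miR-23, miR-27 and miR-24 are processed from shared transcripts of paired loci, and in muscle miR-27 is known for regulating Pax3 and myostatin in mouse. The miR-17/92 cluster is a polycistron known for promoting proliferation, and miR-92b comes from a separate locus with a seed like that of miR-92a. The miR-30 family is abundant in muscle and heart. Animal miRNAs usually repress targets through partial pairing without cutting them, whereas cleavage by Argonaute needs pairing through the centre of the duplex. A PAREsnip row is therefore a candidate cut, graded by a category and an alignment score. Category runs from 0, a lone highest peak of the sequence searched, to 4, a position with a single fragment. The alignment score adds penalties for mismatches, so a lower score means closer pairing, and the highest score in the tables was 4.5. Category and score can differ between windows of the same cut, and the lowest is given for each library.

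Evidence for the members ran over all categories. Of the 56 interactions, 18 had category 0, 6 category 1, 6 category 2, 5 category 3 and 21 category 4, and every category 4 interaction had a fragment abundance of 1. The alignment score was 3 in 4 interactions, 3.5 in 6, 4 in 25 and 4.5 in 21, and no member scored under 3. Fragment abundance had a median of 2 and a highest value of 55. It is treated here as a deposited score and not as a read count, since values of 20 or more in these tables were mostly multiples of 20 for a reason not given. Whether smaller values are read counts was not established. The deposited weighted abundance is the fragment abundance divided by a whole number, called the divisor below. In no member interaction was the divisor below the number of windows listed, and for ADAM19 with miR-23a they were equal in each library. Overlapping windows of the same cut may thus count toward it, so it does not give the number of genomic positions that a fragment matches. The divisor had a median of 10 among members, and 7 of 56 interactions had a divisor of 1. Positions below are sums of start and cleavage position, which takes cleavage positions to run along strand 1. Neither the genome build nor the base that counts as cut is stated in the sources used here. A cut is said to lie in the gene listed with it, and whether that gene covers the position was not checked.

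The cut with category 0 or 1 in the most libraries lay in ADAM19, which encodes a membrane metalloprotease of the disintegrin family that sheds ligands from the cell surface. On chromosome 16 at position 65814595, in a gene listed on strand 1 (ENSSSCG00000017052), miR-23a was listed in 5 libraries of all 3 breeds. Fragment abundance was 6 and 55 in rows of Pietrain high MM replicate 2, against 7 and 8 in Hampshire low MM replicates 1 and 2, 16 in Pietrain low MM replicate 1 and 13 in Polish Large White low MM replicate 2. One high-MM library thus listed the cut, against 4 low-MM libraries. Its category was 0 in 4 libraries and 1 in Hampshire low MM replicate 1, and its divisor ran from 1 to 4. The alignment score was 4.5 in Hampshire low MM replicate 1 and 4 in the other 4 libraries. At the same position miR-23b, which shares its seed with miR-23a, was listed in 3 of these libraries with a score of 4.5. All 3 were low-MM libraries. The listings of miR-23a and miR-23b rest on the same fragments, since their fragment abundances were equal in each shared library, and they are 1 cut and not 2.

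AIMP1 (ENSSSCG00000024168), which encodes a scaffold protein of the multi-tRNA synthetase complex, was the other miR-23 target that recurred widely. Its cut on chromosome 8 at position 115451671 was listed in 4 libraries with a score of 4 in each. miR-23a was named in Pietrain high MM replicate 2 (category 0, fragment abundance 6) and in Pietrain low MM replicate 1 (category 4, fragment abundance 1). miR-23b was named in Hampshire high MM replicate 2 (category 4, fragment abundance 1) and in Polish Large White low MM replicate 2 (category 0, fragment abundance 3). No library listed both miRNAs there, unlike ADAM19. The cut was thus in 2 high-MM and 2 low-MM libraries. All 33 rows with the gene name AIMP1 on strand -1, and the divisors were 11 to 21.

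The muscle gene among the miR-23 targets was MYOM2 (ENSSSCG00000015747), which encodes myomesin 2 of the sarcomeric M-band. Its miR-23a listings fell at 3 positions on chromosome 15, 33602428, 33603954 and 33605038, and only in Pietrain low MM replicate 2 and Polish Large White low MM replicate 1. The abundance was 4 at all 3 positions in Pietrain low MM replicate 2 and 2 at all 3 in Polish Large White low MM replicate 1, with a score of 4.5 and category 2 or 3. Divisors were equal too, 43 and 49 in these libraries, so the 3 positions, which span 2610 bases, need not be separate cuts. Of 18 sarcomere and Z-disc genes examined, 10 were targets of any small RNA, and MYOM2 alone was a target of these miRNAs. The 2 miR-23a positions assigned to both SCAF4 and SOD1 in Hampshire low MM replicate 2 were alike in this respect, with an abundance of 1, a divisor of 23 and a span of 754 bases. SOD1 encodes cytosolic superoxide dismutase and SCAF4 an RNA polymerase II binding protein, and they lie on opposite strands.

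Closest pairing was seen in a pair of genes of protein breakdown. TRIP12, an E3 ubiquitin ligase, was paired with miR-23a at position 130793413 of chromosome 15 with a score of 3 in Pietrain high MM replicate 2 and Pietrain low MM replicate 2. Each had category 4 and a fragment abundance of 1, and the gene lies on strand -1. PSMD2, a non-ATPase subunit of the proteasome regulatory particle, was paired with miR-27b-3p at position 122199162 of chromosome 13, also with a score of 3. Its abundance was 1 (category 4) in Pietrain low MM replicate 2 and 2 (category 0) in Polish Large White low MM replicate 1. In Polish Large White low MM replicate 1 miR-27a was listed at this cut as well, with a score of 4.

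The remaining miR-23/27/24 cuts were each listed in 1 library. In Pietrain high MM replicate 2, miR-27a and miR-27b-3p shared a cut in WBP1L at position 113800524 of chromosome 14 (category 1, fragment abundance 7, divisor 1). They also shared a cut in LAMC1, the laminin gamma 1 chain of the basement membrane, at position 124405530 of chromosome 9 (category 0, fragment abundance 2, divisor 3). The score of miR-27a was 4 at WBP1L and 3.5 at LAMC1, against 4.5 and 4 for miR-27b-3p, whereas at PSMD2 miR-27b-3p scored lower. In Polish Large White low MM replicate 2 miR-23a and miR-23b shared a cut in GMPS, the guanosine monophosphate synthetase, at position 95812281 of chromosome 13 (category 0, score 4, fragment abundance 2). BTG2, an antiproliferative gene, was paired with miR-27b-3p at position 64036083 of chromosome 9 in Polish Large White low MM replicate 2. DLGAP4, a synaptic scaffold gene, was paired with it at position 39774292 of chromosome 17 in Pietrain low MM replicate 1. Both of these had category 4 and a score of 3.5. miR-27a was paired with position 39729575 of chromosome X, shared by FUNDC1, a receptor of mitophagy, and KDM6A, a histone demethylase, in Polish Large White low MM replicate 1 (category 1, score 4). In Polish Large White high MM replicate 2 it was paired with RAB40B, which encodes a small GTPase, at position 502070 of chromosome 12 (category 1, score 4.5). The RAB40B fragment had an abundance of 20 and a divisor of 254, the largest of any member, so where it came from is uncertain.

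In the miR-17/92 group, miR-92b-3p led with 156 rows, all at 1 cut in COX7A1 (ENSSSCG00000037792). COX7A1 encodes the muscle and heart isoform of a subunit of cytochrome c oxidase, the terminal enzyme of the respiratory chain. The cut lay on chromosome 6 at position 45519295 and was listed in 5 libraries of all 3 breeds. Fragment abundance was 3 and 11 in rows of Pietrain high MM replicate 2 (category 0), against 3 and 6 in Hampshire low MM replicates 1 and 2, 5 in Pietrain low MM replicate 2 (category 2 in these 3) and 1 in Polish Large White low MM replicate 1 (category 4). One high-MM library and 4 low-MM libraries thus listed it. The score was 4.5 in all 5 libraries, the weakest pairing that the tables hold, and divisors ran from 25 to 32. Of 78 rows with the gene, 75 name COX7A1 on strand -1 and 3 name it on strand 1. The gene was also paired with miR-338-5p at positions 45519354 and 45519706, in 6 libraries each (2 high MM and 4 low MM). Small RNAs without a miRNA name were listed with COX7A1 at the more distant positions 45176201 and 45424800, in 1 library each. Whether COX7A1 covers all these positions was not checked. Of 20 oxidative metabolism genes examined, 4 were targets of any small RNA, and COX7A1 alone was a target of these miRNAs.

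The miR-19b cut in SSU72 was listed in low-MM libraries only. SSU72 (ENSSSCG00000003348) encodes a phosphatase of the RNA polymerase II tail, and its cut lay on chromosome 6 at position 63728362. None of the 6 high-MM libraries listed it. Fragment abundance was 2 in Hampshire low MM replicate 1 (category 2, score 4.5), 1 in Hampshire low MM replicate 2 (category 4, score 4) and 1 in Polish Large White low MM replicate 2 (category 4, score 4). Divisors were 1 to 4, and the gene is named on strand -1. A small RNA without a miRNA name was listed with SSU72 at positions 63361235 and 63739604, in 1 library each.

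The other cuts of this group had low fragment abundances. miR-17-5p was paired with GGNBP2, a gametogenetin binding protein gene, at position 38108882 of chromosome 12 with a score of 3.5. Its abundance was 1 in Pietrain high MM replicate 1 and 2 in Polish Large White low MM replicate 2. In the second of these libraries miR-106a, whose seed matches that of miR-17-5p, was listed at the same position in 6 rows, and this was the only cut shared with a small RNA outside the 3 groups. miR-17-5p was also paired with SLN at position 36233603 of chromosome 9. SLN encodes sarcolipin, an inhibitor of the sarcoplasmic reticulum calcium pump. The abundance was 1 and the score 3.5 in Pietrain high MM replicate 2, against an abundance of 3 and a score of 4.5 in Polish Large White low MM replicate 2. The divisor was 23 in both libraries. Pietrain low MM replicate 2 alone listed miR-19b with RAB21, an endosomal GTPase gene, at position 35786028 of chromosome 5 (category 4, score 4), and miR-20a with ACADSB, a short and branched chain acyl-CoA dehydrogenase gene, at position 132593789 of chromosome 14 (category 0, score 4.5, fragment abundance 2).

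The miR-30 group was concentrated at 1 cut. miR-30a-5p accounted for 214 of its 236 rows, all at position 110648472 of chromosome 4 in SYPL2 (ENSSSCG00000006829). SYPL2 encodes mitsugumin 29, a synaptophysin-like protein of the triad junction, where the transverse tubule meets the sarcoplasmic reticulum. It was listed in Pietrain high MM replicate 2 with fragment abundances of 2 and 3 and category 0. It was listed with an abundance of 1 and category 4 in Hampshire low MM replicate 2, Pietrain low MM replicate 2 and Polish Large White low MM replicate 2. One high-MM and 3 low-MM libraries thus held it, with a score of 4 in each and divisors of 22 to 28. The 214 rows come from 33 overlapping windows and name the gene on strand -1, so the number of rows says little about the number of fragments. PKIA, which encodes an inhibitor of cyclic AMP dependent protein kinase, was paired with miR-30b-5p at position 57872446 of chromosome 4. It had an abundance of 1 and a score of 4 in Hampshire high MM replicate 2 and in Pietrain low MM replicate 2. A position on chromosome 6, 85565557, with no listed gene was paired with miR-30b-5p in Hampshire low MM replicate 1.

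The cuts of the 3 groups were next compared by position and strand. No cut was shared between groups. Of the 25 cuts, 6 were paired with more than 1 member, and in each case these were the a and b forms of miR-23 or miR-27. The lowest score of the a form was below that of the b form at 3 of these 6 cuts, equal to it at 2 and above it at 1. A single library held 12 cuts, and 13 cuts were in 2 or more libraries. Genes were named on strand 1 alone at 14 cuts, on strand -1 alone at 6 and on both strands at 4, and 1 cut had no gene. Among the 4 is the COX7A1 cut, where a single gene was named on strand -1 in 75 rows and on strand 1 in 3. The rest of the 4 name a pair of genes on opposite strands. By group, the gene lay on strand 1 alone at 11 of 16 miR-23/27/24 cuts, at 3 of 6 miR-17/92 cuts and at 0 of 3 miR-30 cuts. Cuts were defined by start plus position, so this sum was constant by construction at the 19 cuts with more than 1 window. That positions run along strand 1 was therefore assumed and not tested. Whether a transcript from strand -1 was cut at the 6 cuts with strand -1 alone, or at the COX7A1 cut, was not tested.

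Strength of pairing and of degradome evidence was compared between the groups within libraries that listed both. The alignment score averaged 4.08 ± 0.231 for miR-23/27/24 and 4.26 ± 0.226 for miR-17/92 (SD, n = 6 libraries), a difference of -0.19 ± 0.195 (SD of the difference; two-sided exact sign-flip permutation test, adjusted p = 0.375 over 3 pairs). The miR-23/27/24 group scored lower in 4 of 6 libraries and equal in 2. Against miR-30, the difference was -0.02 ± 0.0935 for miR-23/27/24 (n = 6, exact permutation adjusted p = 0.750) and 0.12 ± 0.162 for miR-17/92 (n = 5, exact permutation adjusted p = 0.750). Libraries with equal scores carry no weight in this test, so the smallest p it could give was 0.125, 0.25 and 0.5 for these 3 pairs in turn. None could have passed the threshold of 0.05, and the tests do not show that the groups score alike. Categories 0 to 2 made up 68.2% ± 24.5 of miR-23/27/24 and 50.0% ± 33.3 of miR-17/92 interactions in the 6 libraries with both (exact permutation adjusted p = 0.250). They made up 59.8% ± 37.2 of miR-23/27/24 and 16.7% ± 40.8 of miR-30 interactions (n = 6, exact permutation adjusted p = 0.250), and 60.0% ± 25.3 of miR-17/92 and 20% ± 44.7 of miR-30 interactions (n = 5, exact permutation adjusted p = 0.250). The SD of the difference between libraries was 31.6, 44.9 and 56.0 percentage points in turn, more than each of the differences of 18.2, 43.2 and 40.0. The smallest p that these 3 comparisons could give was 0.125, 0.0625 and 0.0625, so none of them could have passed either. Pooled over libraries, categories 0 to 2 held 22 of 35 miR-23/27/24, 7 of 14 miR-17/92 and 1 of 7 miR-30 interactions.

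The members were then set against the other named miRNAs in the same libraries. Their alignment score averaged 4.06 ± 0.298, against 3.78 ± 0.277 for the others (SD, n = 10 libraries), so members paired less closely. The difference of 0.28 ± 0.245 had the same sign in 9 of 10 libraries (two-sided exact sign-flip permutation test, p = 0.00977). Of the 1512 interactions of other named miRNAs, 702 (46.4%) belonged to miR-4331-5p, with a mean score of 3.48. Without this miRNA the difference was 0.03 and the call was lost (exact permutation p = 0.582). Among fragments with a divisor of 1 the difference was 0.05 (exact permutation p = 0.750), but the 4 libraries left there are too few to pass. In shallow rows, explained below, it kept its size without passing (0.28, n = 7 libraries, exact permutation p = 0.0625). Categories 0 to 2 held 47.9% ± 33.1 of members and 57.4% ± 15.7 of the others (n = 10, exact permutation p = 0.441). With categories 0 and 1 alone the sign was opposite, and members stood 24.1 percentage points above the others (exact permutation p = 0.0371). This counts the a and b forms at the same cut as separate interactions, and it was not recomputed with each cut counted once. Polish Large White high MM replicate 2 entered it with 1 interaction, the RAB40B cut of category 1.

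A pair of further measures was chosen after their values had been seen. For that reason their test results are not printed, and they are given as a description. A fragment abundance of 20 or more was found in 11% ± 31.4 of member and 66.6% ± 4.17 of other interactions (SD, n = 10 libraries), with members lower in 9 of 10 libraries. Over all libraries, 2 of 56 member interactions had such an abundance, in ADAM19 and RAB40B. The exception was Polish Large White high MM replicate 2, where the RAB40B cut was the only member. Without miR-4331-5p the difference was -22.9 percentage points, against -55.6 with it. A gene was listed for 98.0% ± 6.32 of members and 80.3% ± 6.86 of the others, with members higher in 10 of 10 libraries. Counted in rows, in which nuclear windows appear once per strand, members stood 15.6 percentage points lower. Of the distinct interactions, 15 of 31 members (48.4%) and 191 of 1070 others (17.9%) were in 2 or more libraries, a difference that was not tested. The 15 count each MYOM2 position separately, and ADAM19 and AIMP1 under both miR-23a and miR-23b. The others were not recounted without miR-4331-5p here.

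Whether members were listed more in high-MM or in low-MM animals was asked per library. High-MM libraries held 0 and 2 member interactions for Hampshire, 1 and 10 for Pietrain, and 0 and 1 for Polish Large White. Low-MM libraries held 5 and 7 for Hampshire, 3 and 10 for Pietrain, and 7 and 10 for Polish Large White. Members were listed in 4 of 6 high-MM libraries, against all 6 low-MM libraries. As a share of a library's interactions, members made up 1.29% ± 2.52 at high MM and 2.76% ± 0.711 at low MM (SD, 6 libraries each). The difference of -1.48 percentage points was smaller than the spread between high-MM libraries and did not pass the test (two-sided exact permutation within breeds, 216 relabellings, p = 0.194). The high-MM group rested on Pietrain high MM replicate 2, with 6.41% (95% Wilson interval 3.52 to 11.4, counting error only), while the other 5 ran from 0% to 0.498%. Without that library the difference was -2.50 percentage points and passed the test (exact permutation p = 0.00926, the smallest possible), and for miR-23/27/24 alone it was -1.64 (exact permutation adjusted p = 0.0278). Without Pietrain, the breed whose titles and tab names conflict, the members' difference was -2.68 percentage points over 8 libraries (exact permutation p = 0.0556, the smallest possible there).

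Depth moved with this result. The ratio of normalized to weighted abundance in the deposited tables falls into shallow and deep classes of rows. The inverse of the median ratio of each class, summed over the classes that a library holds, serves as relative depth. Relative depth was 36.9 in Pietrain high MM replicate 2 and 2.40 to 2.95 in the other high-MM libraries, against 15.2 to 34.4 in the low-MM libraries. The members' share was 2.13% to 6.41% in the 7 libraries with deep rows and 0% to 0.498% in the 5 without, and these ranges do not overlap. Of the 56 member interactions, 41 (73.2%) had deep rows, against 58.1% of those of other named miRNAs. In shallow rows alone, which 10 libraries held, members made up 0.743% at high MM and 2.06% at low MM, a difference of -1.32 percentage points against -1.48 in all rows (exact permutation p = 0.222). Pietrain low MM replicate 1 and Polish Large White low MM replicate 2 held no shallow rows, so these differences rest on unlike sets of libraries. Whether depth accounts for the difference was not tested. Relative depth of whole libraries still separates the MM groups outside Pietrain high MM replicate 2, and there depth and MM cannot be told apart. The totals of rows per library ran from 699 to 2949, and the sources used here do not state the read depth itself. The small RNA total implied by the deposited normalization also differed, at 246 ± 92.1 for high MM and 205 ± 16.2 for low MM (SD). It was largest in Polish Large White high MM replicate 1 (424, 0 members) and smallest in Pietrain high MM replicate 2 (174, 10 members). Whether it bears on the members' share was not tested. In all 748 member rows the short read abundance equalled the number of miRNA names, so it was not read as a miRNA level. The tables hold retained interactions only, so a missing member is unlisted and not measured at 0.

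By group, miR-23/27/24 made up 0.861% ± 1.79 of interactions at high MM and 1.78% ± 0.641 at low MM (SD, 6 libraries each). The miR-17/92 group made up 0.286% ± 0.518 at high MM and 0.684% ± 0.470 at low MM, and the miR-30 group 0.138% ± 0.257 at high MM and 0.302% ± 0.242 at low MM. None of the 3 differences passed (exact permutation within breeds, adjusted p = 0.306 for each). With Pietrain read by the tab names, the miR-17/92 difference was -0.73 percentage points, against -0.40 by the titles, and the adjusted p was 0.0556 by the exact permutation test. Without Pietrain the differences were -1.55 for miR-23/27/24 and -0.84 for miR-17/92 (exact permutation adjusted p = 0.0833 each). Between breeds the members' share was 1.42% ± 1.43 for Hampshire, 2.96% ± 2.50 for Pietrain and 1.70% ± 1.87 for Polish Large White (SD, 4 libraries each), and the variance between breeds did not pass (one-sided exact permutation p = 0.519).

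Single interactions were tested by presence. Of 203 named interactions in 2 to 10 libraries, 15 were members, and 0% of the 203 were called between high and low MM (exact permutation within breeds, Benjamini-Hochberg adjusted). None had an unadjusted p under 0.05. SSU72 with miR-19b and ADAM19 with miR-23b each stood at 0 high-MM and 3 low-MM libraries (exact permutation p = 0.167, adjusted p = 1). ADAM19 with miR-23a and COX7A1 with miR-92b-3p each stood at 1 high-MM and 4 low-MM libraries (exact permutation p = 0.278, adjusted p = 1). SYPL2 with miR-30a-5p stood at 1 and 3 libraries (exact permutation p = 0.583, adjusted p = 1). In shallow rows alone, COX7A1 and SYPL2 each stood at 1 high-MM and 1 low-MM library. The smallest possible p is 0.00926, so 38 interactions split completely by MM would be needed for any call. Of the 25 cuts, 3 were in high-MM libraries only, 14 in low-MM libraries only and 8 in both. The low-only share of 56% stood beside 55.1% of the 1048 cuts of other named miRNAs, and the high-only share of 12% beside 33.5%. These shares were not tested.

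Target genes described for these miRNAs in the literature were looked for as well. Lists of 13 textbook targets of miR-23/27/24, 13 of miR-17/92 and 10 of miR-30 were drawn up from general knowledge. None was listed as a target of its own group, and only 1, 3 and 1 of them appeared as a target of any small RNA in the tables. Of the 8 lists of muscle genes, covering contractile, metabolic, signalling and regulatory genes, members touched MYOM2 and COX7A1 alone. Members held 1.63% of the 1414 target genes in the tables, so few listed genes would be touched at that share, and this was not tested. SLN and SYPL2 were on none of these lists. Other small RNAs were listed with 8 of the 23 target genes at other positions. They included miR-4331-5p in PKIA, ACADSB, KDM6A, MYOM2 and GMPS, and miR-181b in SLN.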

How the data were processed

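Each of the 12 animals has a deposited table in PAREsnip format, per the file headers. The submitters' processing notes name CASAVA 1.8.2 and FastQC, and RNA integrity numbers were over 7 per the labels' protocols. The sources used here do not state the aligner, genome build, annotation or row filter. The design text speaks of chickens, but every sample is labelled pig. Per the file headers, the authors give a category score of 0 to 4, an alignment score and a fragment abundance, treated here as a score. The deposited p-value has 2 decimals and a maximum of 0.05. Weighted and normalized abundances were deposited as signal values of unknown scale. A normalized to weighted ratio under 0.15 marked a row as deep, otherwise as shallow. In Hampshire high MM replicate 2, 10 weighted values look like dates and were set aside, and none of them was in a member row. Cleavage positions and genomic starts, other columns of the deposited tables, were added to identify a cut.

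Members and gene lists were chosen with earlier results of these data known. Named here are, per group, interactions in 3 or more libraries, of category 0 or 1, of the lowest scores, with the largest surplus at high or low MM, or in a gene list, and in practice every member cut. Symbols of 18 of 23 target genes came from the reference table and the others from the files. Python 3.11.15, pandas 2.3.3, numpy 2.4.6 and scipy 1.17.1 were used. Exact permutations were made within breeds for high against low MM, over 34650 partitions for breeds, and as sign-flips over libraries for groups of miRNAs, all two-sided except the breed test of variance, with Benjamini-Hochberg adjustment at 0.05. Tested on simulated data, the presence comparison of 203 interactions called 100 of 100 completely split ones, and 0 of 30 since 38 are needed. Alternatives were Pietrain by tab names, no Pietrain, single libraries left out, a replicate block, other units of counting, stricter p-value, divisor 1, listed genes only, a denominator of named miRNAs, category 0 or 1, and the others without miR-4331-5p. Added after seeing the data were shallow rows only and the merging of equal cuts of a gene. No miRNA sequence is printed because none was in the files used.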

Additional observations from a re-analysis of the deposited data

Results flagged for a closer look

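In 6 of 20 groups of libraries examined, a library stood apart by Dixon's criterion. Its nominal rate of about 1 in 20 is for normally distributed values. It does not hold for these shares, which come from few interactions and include many values of 0. The 20 overlap and share libraries. Among the 6 high-MM libraries, Pietrain high MM replicate 2 was highest in each measure, with 6.41% of its interactions from members, 4.49% from miR-23/27/24, 1.28% from miR-17/92 and 0.641% from miR-30. It was the only high-MM library with deep rows, at a relative depth of 36.9, and the tab names call it low. Among the 6 low-MM libraries, Polish Large White low MM replicate 2 had the highest share of members at 4.15%. Among the 4 Polish Large White libraries it was the only one with a miR-30 interaction, a share of 0.415%, which is 1 interaction. A group with a single non-zero value always meets the criterion. In shallow rows alone, which 10 libraries held, the members' share at high minus low MM was -1.32 percentage points (exact permutation p = 0.222). In all rows of the 12 libraries it was -1.48.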

How the results depend on the processing

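Across 21 results, 428 recomputed values were obtained, of which 408 kept their direction and side of the threshold, 9 reversed, 7 no longer passed the threshold and 2 newly passed it. In the other 2, in shallow rows, the low-MM surplus of COX7A1 with miR-92b-3p and of SYPL2 with miR-30a-5p was 0. The score difference of miR-23/27/24 against miR-30 turned to 0.0312 without Pietrain and to 0.17 in shallow rows, and ran from -0.0486 to 0.005 when single libraries were left out. The miR-30 share at high minus low MM turned to 0.0970 percentage points in shallow rows. In rows counted as listed, the category difference of miR-23/27/24 and miR-17/92 turned to -9.11 percentage points. The category difference of members and other named miRNAs turned to 20.8 at a divisor of 1 and to 24.1 with categories 0 and 1, and the difference in listed genes to -15.6 in rows and to -2.08 at a divisor of 1. The members' higher score did not pass at a divisor of 1 (0.0521, 4 libraries), without miR-4331-5p (0.0339) and in shallow rows (0.28), and ran from 0.24 to 0.34 without single libraries. The share of abundances of 20 or more, chosen after its values were seen, was nearer to that of the others without Pietrain (-48.8 percentage points), in rows (-23.9), at a divisor of 1 (-4.17) and without miR-4331-5p (-22.9). These 4 are among the 7 values that no longer passed, and a test of a measure chosen this way carries no weight. The members' share at high minus low MM ran from -2.50 to -1.20 percentage points without single libraries, and that of miR-23/27/24 from -1.64 to -0.744, each gaining a call without Pietrain high MM replicate 2. The cause of these changes was not tested. By the tab names the members' difference was -2.09 (exact permutation p = 0.0556).

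Same-numbered high-MM and low-MM libraries deviated together with a correlation of 0.393 for Hampshire, -0.499 for Pietrain and 0.117 for Polish Large White (over 128 miRNAs). With 2 libraries per breed and MM group, these values cannot settle whether replicate numbers pair the animals. With a replicate block the members' difference kept its value of -1.48 percentage points (exact permutation p = 0.219) and 0 of 203 interactions were called, as without it. A library that lists any member holds 1 to 10 of them, so each interaction moves its share by a large step.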
